A study of Mus musculus with 12 samples.

Results

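Patterning homeobox genes encode transcription factors that bind DNA through a homeodomain and give regions of the embryo their identity. The set examined here comprised genes of the Hox, Dlx, Lhx, Lmx1, Nkx, Pax, Irx, Otx, Gbx, Meis, Pbx, Pou, Zfhx, Emx2, Msx, Barhl, Onecut and Isl families, and those related to Six3. A peak was counted as a member when the symbol of its nearest gene belonged to one of these families. Of the 55085 peaks of 5-methylcytosine (5mC) 241 were members, near 44 genes, and of the 47478 peaks of 5-hydroxymethylcytosine (5hmC) 297 were members, near 46 genes. The 538 member peaks of 102563 were assigned to 49 genes, 41 of which had peaks of both marks. The RefSeq annotation holds 130 mouse genes with such symbols, and 81 of them, among them each of the 39 Hox genes, had no row in the tables used here.

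The data came from the cortex of mouse embryos at E14.5, in mid-neurogenesis, that were doubly heterozygous for a Btg2 reporter with red fluorescence and a Tubb3 reporter with green fluorescence. Sorting gave cells with neither colour (proliferative progenitors, PP), red cells without green (differentiative progenitors, DP) and green cells (neurons), so the cell types rested on the activity of those 2 reporters. DNA of the 3 cell types was barcoded, mixed and precipitated with an antibody to 5mC (MeDIP) or to 5hmC (hMeDIP), and each mark had 1 precipitated and 1 input sample per cell type in the labels, 12 samples in all. All cells carried both reporters, and no group received a treatment. In the authors' earlier RNA-seq of these cell types, 7 of 7 PP markers with a row were expressed at their highest in PP. So were 7 of 7 DP markers in DP and 6 of 6 neuronal markers in neurons. The markers include Btg2 and Tubb3, the genes of the 2 reporters, and Pax6, a member gene. They do not check the purity of the DNA samples.

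In the cortex, 5mC is the common cytosine modification and is often found with silent regulatory DNA, whereas 5hmC is made from it by Tet enzymes and accumulates in neurons. In the forebrain, Pax6, Emx2 and Lhx2 act in cortical progenitors, Dlx and Nkx2-1 in the ventral telencephalon and its interneurons, and Lhx1, Lhx5 and Barhl2 in early regions and cell types such as Cajal-Retzius cells. Hox, Irx, Pou4f1, Pax2 and Pax7 are used mainly in the midbrain, hindbrain and spinal cord, and the promoters of many such genes lie in stretches rich in CpG dinucleotides, the sites of most methylation.

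A level was the log2 of the mean number of normalized reads in a peak, as the authors averaged it over replicates. A relative change was the later cell type minus the earlier one, less the median of that difference over all peaks of the same mark, and a peak was called lower or higher when this reached 1.5-fold (0.58 on the log2 scale). The tables hold 1 averaged level per peak and cell type, so no spread between replicates could be computed, the read depth behind each level cannot be read from the tables, and the changes below are descriptions without a test.

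No member peak overlapped the promoter window of a member gene, taken as 250 bases before to 50 after a RefSeq start (GRCm38.p6), among 41 windows of 34 genes. Windows were not given for the other 15 genes, and other start sites exist. Gbx1, without a window, had a 5hmC peak 0.143 kb from its start that could not be scored. Within 2 kb of the annotated start lay 1 member 5mC peak (0.415%, against 6.14% of all) and 8 member 5hmC peaks (2.69% against 6.63%). Over all peaks, 0.621% of 5mC and 0.811% of 5hmC peaks overlapped any promoter window. At such low shares the lack of overlaps among the members says little. The member windows held a median of 19 CpG each (range 2 to 57), against 7 in all 32851 windows. A single member peak lay in any window, a 5mC peak assigned to Zfhx3, 122 bp long, inside the promoter window of the long noncoding RNA gene Gm51549. It is printed below with the 250 bases before the starts of Zfhx3 (the inner start near which the authors' distances are counted), Zfhx2 and Emx2, genes near which the marks or the expression changed, to show how CpG (in capitals) were spaced in a methylated stretch and in promoter stretches without a peak. All are from RefSeq, GRCm38.p6, 5′ to 3′, and the peak is given on the plus strand. The start used for Zfhx2 is also an inner one, as the stretch lies within the RefSeq span of Zfhx2 (chr14:55060268-55092381).
Zfhx3 5mC peak, chr8:108394050-108394171: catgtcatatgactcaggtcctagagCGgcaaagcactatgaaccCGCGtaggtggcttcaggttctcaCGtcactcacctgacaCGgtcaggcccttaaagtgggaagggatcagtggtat
Zfhx3 promoter, chr8:108714394-108714643, plus strand: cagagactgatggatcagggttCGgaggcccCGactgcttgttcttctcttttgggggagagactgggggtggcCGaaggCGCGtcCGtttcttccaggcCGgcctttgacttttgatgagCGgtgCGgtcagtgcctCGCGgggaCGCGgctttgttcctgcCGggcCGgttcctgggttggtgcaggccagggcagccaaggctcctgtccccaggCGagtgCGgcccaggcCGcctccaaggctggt
Zfhx2 promoter, chr14:55092049-55092298, minus strand: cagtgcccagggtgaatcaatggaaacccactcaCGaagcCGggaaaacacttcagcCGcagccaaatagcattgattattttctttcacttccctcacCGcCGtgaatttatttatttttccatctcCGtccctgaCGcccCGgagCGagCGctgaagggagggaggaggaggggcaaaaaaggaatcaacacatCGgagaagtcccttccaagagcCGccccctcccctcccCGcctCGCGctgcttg
Emx2 promoter, chr19:59458440-59458689, plus strand: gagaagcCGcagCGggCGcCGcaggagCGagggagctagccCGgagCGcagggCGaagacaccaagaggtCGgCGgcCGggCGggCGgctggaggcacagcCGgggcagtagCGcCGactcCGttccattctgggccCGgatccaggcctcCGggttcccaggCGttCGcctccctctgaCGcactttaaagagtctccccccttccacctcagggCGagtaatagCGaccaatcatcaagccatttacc
The methylated stretch held 5 CpG, or 4.1 per 100 bp. The promoter stretches held 7.2 per 100 bp at Zfhx3, 6 at Zfhx2 and 9.6 at Emx2. That Zfhx3 peak had 5mC levels of 5.33 (PP), 5.36 (DP) and 4.93 (neurons), a relative change from PP to neurons of -0.22, which is within the bounds set for a call. Of the motifs searched on both strands of the member windows, the E-box CAGCTG occurred in 14.6% (16.3% of all windows), the E-box CAGATG in 2.44% (17.2%), the homeodomain core TAATTA in 7.32% (5.29%), TGACAG, the core bound by Meis factors, in 19.5% (19.2%) and the octamer ATGCAAAT in 0% (1.74%).

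Member peaks lay farther from the annotated starts of the genes that named them than peaks of the series did. The median distance from the gene start was 62.4 kb for 5mC (20.4 kb over all 5mC peaks) and 65.5 kb for 5hmC (27.2 kb over all 5hmC peaks). More than 100 kb away lay 77 of 241 member 5mC peaks (32% against 11% of all) and 106 of 297 member 5hmC peaks (35.7% against 17.4%). In the authors' annotation 46 member 5mC peaks were inside their gene (19.1% against 40.2%), as were 80 member 5hmC peaks (26.9% against 36.2%). These distances and shares depended on the gene model. The 39 5mC and 25 5hmC peaks annotated upstream of Zfhx3, a large zinc finger and homeodomain factor of neuronal differentiation, all fell within the RefSeq span of Zfhx3 (chr8:108279311-108961636), and by RefSeq spans 37.8% of member 5mC peaks (44.8% of all) and 37% of member 5hmC peaks (40.5% of all) overlapped their gene. Without Zfhx3 the member shares by RefSeq spans were 20.2% and 28.1%. Of the peaks outside their gene in the authors' annotation, 65 of 195 for 5mC and 73 of 217 for 5hmC overlapped the span of another RefSeq gene, so the nearest symbol is an address and not a shown target. Member peaks were as wide as others (median 146 bp for 5mC and 163 bp for 5hmC, against 145 and 165 bp).

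From PP to DP, 5mC was lower at 22 member peaks (9.13%, against 5.44% of all 5mC peaks) and higher at 6 (2.49% against 4.6%). From DP to neurons it was lower at 25 (10.4% against 9.36%) and higher at 17 (7.05% against 5.12%). Over the whole course from PP to neurons 36 member peaks of 18 genes were lower (14.9% against 10.2%) and 12 of 7 genes higher (4.98% against 5%). Without centring, 42 were lower and 5 higher from DP to neurons and 50 lower and 6 higher from PP to neurons, since the median of all 5mC peaks itself differed by -0.18 and -0.17. Among peaks that reached a level of 5 in some cell type, 7.58% of 132 members and 7.05% of all were lower from PP to neurons, and 4.55% and 2.76% from PP to DP. With a threshold of 2-fold the shares lower from PP to neurons were 7.05% and 4%, so the difference from the background depended on which peaks were counted.

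5hmC moved mostly upwards. From PP to DP 42 member peaks were higher (14.1%, against 11.2% of all 5hmC peaks) and 15 lower (5.05% against 4.68%). From DP to neurons 55 were higher (18.5% against 16.5%) and 16 lower (5.39% against 7.07%). From PP to neurons 78 peaks of 33 genes were higher (26.3% against 22.1%) and 18 of 12 genes lower (6.06% against 7.71%). These shares were near those of all peaks, and the median relative change of the members was 0.05 from PP to neurons for 5hmC and -0.04 for 5mC, so most member peaks stayed within the bounds.

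**Figure D1:**
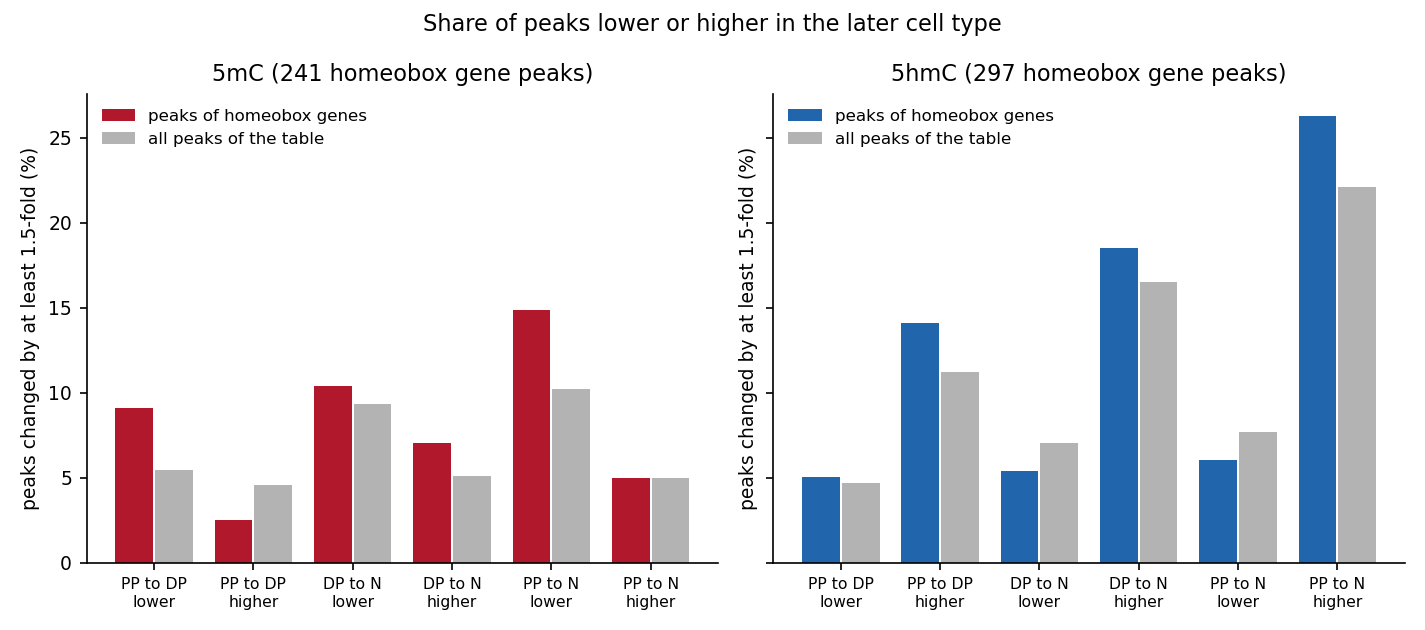
Share of peaks (%) lower or higher by at least 1.5-fold in the later cell type, for 5mC (left) and 5hmC (right). Coloured bars are peaks of patterning homeobox genes and grey bars all peaks of the same mark. In the member bars 5hmC was more often higher than lower at each transition, reaching 26.3% from PP to neurons, while 5mC was more often lower.

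The marks also differed in when they moved. At the 36 member peaks with lower 5mC in neurons than PP the median level passed from 4.79 through 4.53 to 3.6. Of them 21 were called lower from DP to neurons and 10 from PP to DP. At the 78 member peaks with higher 5hmC the median level went from 3.71 in PP through 4.29 in DP to 4.96 in neurons, and 34 were called higher at the first step and 46 at the second. The corresponding shares over all peaks were similar (21.2% and 58.6% of lower 5mC peaks, 43.6% and 63.8% of higher 5hmC peaks, at the first and second step). As these peaks were selected by the change from PP to neurons, the values describe its course only.

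At 35 places a member 5mC peak overlapped a 5hmC peak by at least 1 bp, and both peaks of each such pair named the same gene. Of these, 12 pairs near 10 genes had lower 5mC and higher 5hmC in neurons than PP (34.3%, against 18.8% of all 6735 pairs). Another 9 pairs had higher 5hmC without lower 5mC, 2 had lower 5mC without higher 5hmC, and 12 had neither. In all, 5mC was lower in 40% of member pairs (24.2% of all pairs) and 5hmC higher in 60% (42.9%). No member pair moved the opposite way in either mark, which was also rare in the series. Of all 6735 pairs 252 had higher 5mC and 221 lower 5hmC. With a threshold of 2-fold, 4 of the 35 pairs remained (11.4%, against 9.21% of all). With a stricter overlap, 9 of 32 pairs had both changes (28.1%, against 20.1% of all).

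**Figure D2:**
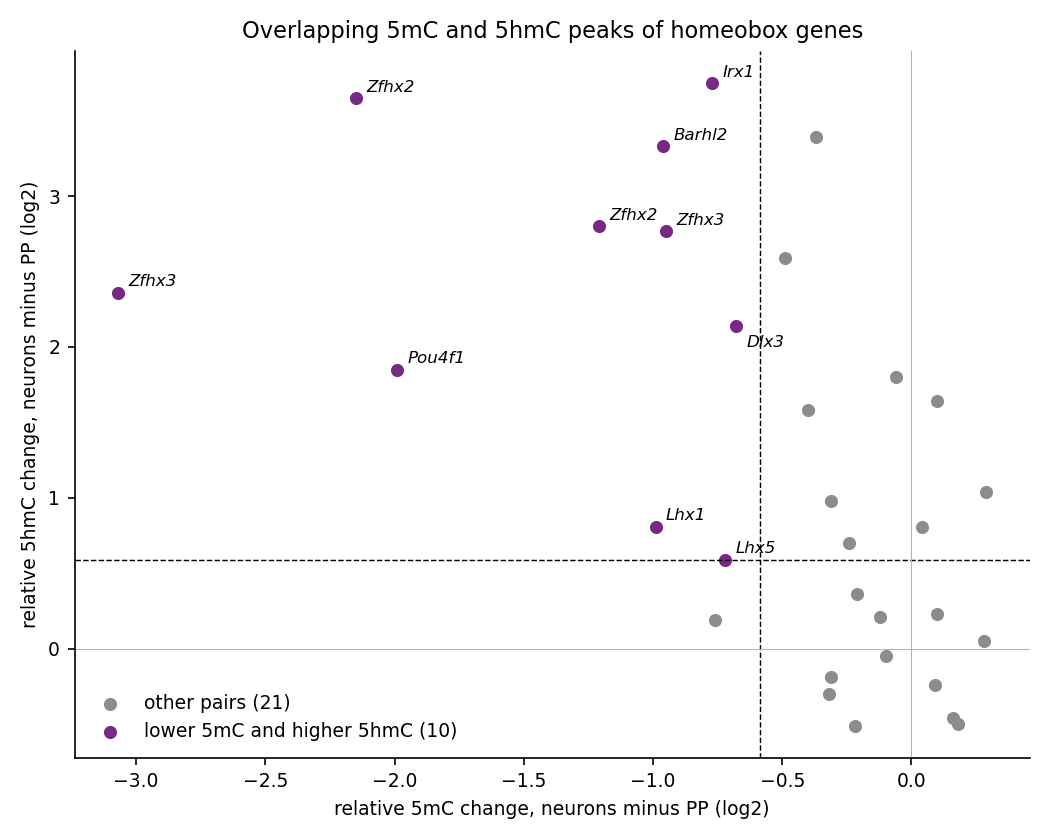
Relative change from PP to neurons of 5mC (horizontal, log2) and of 5hmC (vertical, log2) at 31 of the 35 overlapping pairs of peaks near patterning homeobox genes. Each point is a pair, dashed lines mark 1.5-fold, and the 10 named points in the upper left have both lower 5mC and higher 5hmC.

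The pair with the largest combined change lay inside Zfhx2, which encodes a zinc finger homeodomain factor of postmitotic neurons (5mC peak chr14:55086293-55086418, 5.97 kb from the gene start). In the order PP, DP and neurons, which holds for all values given in threes, it had 5mC levels of 5.62, 5.52 and 3.3 and 5hmC levels of 1.22, 1.78 and 4.79. Both marks thus moved between DP and neurons. A further pair in Zfhx2, 17.8 kb from its start, moved in steps, with 5mC of 5.45, 4.91 and 4.07 and 5hmC of 3.03, 4.6 and 5.75. This pair also overlaps Zfhx2os, a transcript antisense to Zfhx2, and its peaks share 8 bp. A pair at Zfhx3 (chr8:108496416-108496533, 218 kb upstream of the annotated start) had 5mC of 4.81, 4.7 and 1.57, or 28.1, 26.1 and 2.97 reads. Its 5hmC was 2.37, 4.52 and 4.65. There 5hmC was already at its neuronal level in DP, whereas 5mC was still at its PP level.

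Irx1, which patterns the hindbrain, spinal cord and other organs, had such a pair 344 kb from its start. The 5mC level there was 4.99, 4.89 and 4.05 and the 5hmC level 1.79, 4.16 and 5.45, the largest relative 5hmC gain of any member (3.75). A PP level as low as 1.79 stands for few reads, so the size and rank of this gain are poorly determined. The same holds for other large 5hmC gains, such as those from 1.22 in Zfhx2, 1.35 at Barhl2, 1.86 inside Zfhx3 and 1.49 at Nkx6-2. It also holds for gains from 1.65 in Lmx1a and 1.79 in Pou5f2. Barhl2, which acts in the diencephalon, retina and spinal cord, had one 193 kb downstream with 5mC of 4.72, 4 and 3.59 and 5hmC of 1.35, 3.03 and 4.6. The peaks of this pair share 16 bp. At Pou4f1, a factor of sensory neurons, 5mC was already low in DP (4.22, 1.62 and 2.06) while 5hmC stood at 2.95, 4.32 and 4.72. The 5mC levels of 1.62 and 2.06 stand for few reads, so the size of this fall is poorly determined. This peak lies in the noncoding gene D130079A08Rik. Inside Zfhx3, 97.1 kb from the annotated start, peaks that share 11 bp had 5mC of 5.05, 4.88 and 3.93 and 5hmC of 1.86, 3.74 and 4.55. Dlx3 had a pair 9.68 kb downstream with 5mC of 4.92, 4.95 and 4.08 and 5hmC of 2.55, 3.62 and 4.61. In both of these pairs 5hmC rose at both steps and 5mC was lower only from DP to neurons. Pairs also lay at Lhx1 and Lhx5. At Lhx1 and Lhx5 5hmC was high throughout (5.47 and 5.83 in PP), and the Lhx5 gain of 0.59 stood at the threshold.

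**Figure D3:**
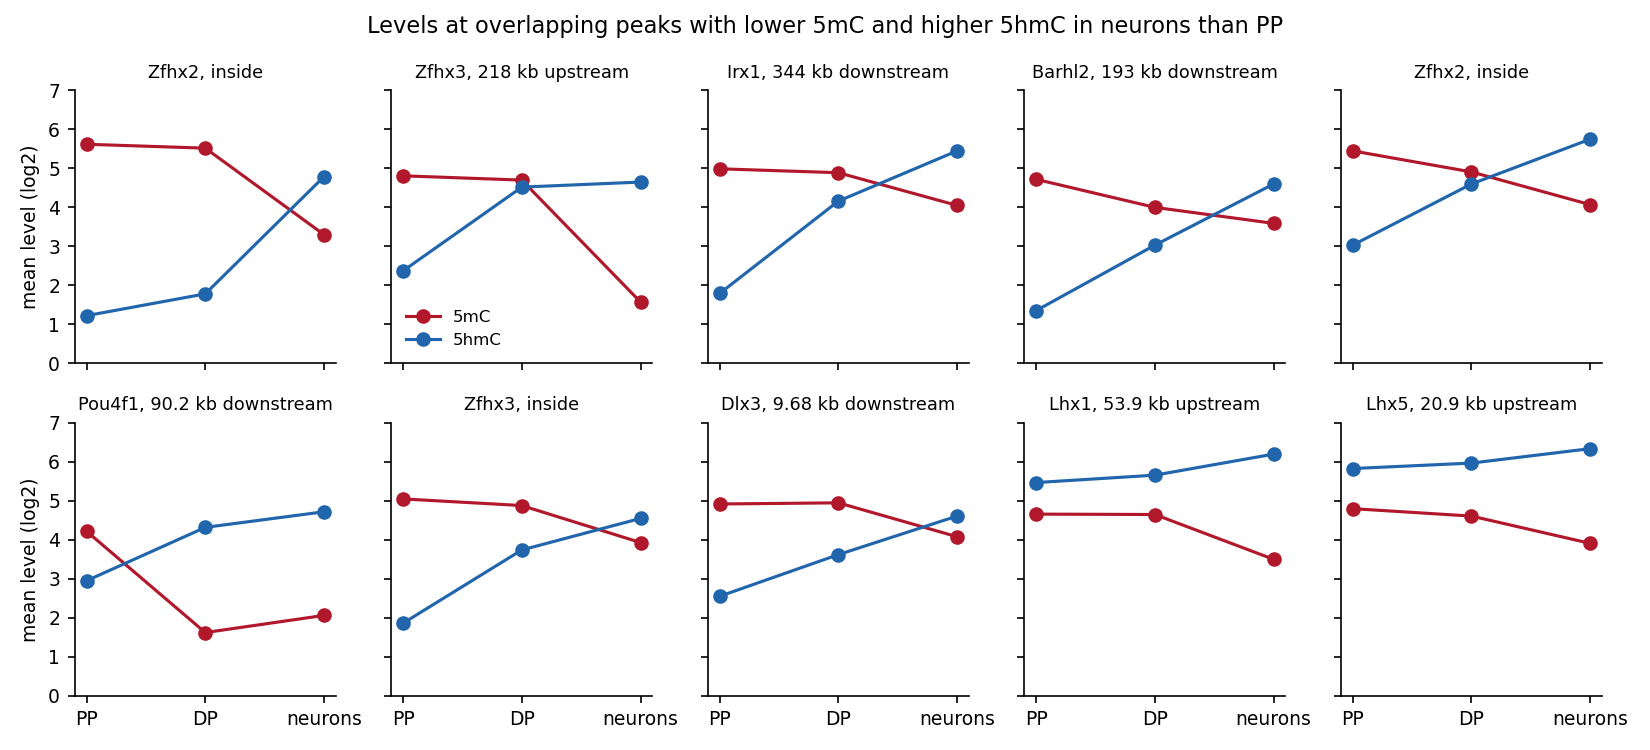
Mean log2 level (vertical axis) of 5mC (red) and 5hmC (blue) in PP, DP and neurons at 10 of the 12 pairs with lower 5mC and higher 5hmC in neurons than PP. Points are the authors' means over replicates without an error. In 7 of the 10 pairs shown 5hmC was called higher already from PP to DP, while 5mC was called lower at that step in 2 and from DP to neurons in 7.

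Of all 12 pairs, 5hmC was called higher from PP to DP in 9, and 5mC lower at that step in 2 and from DP to neurons in 9. Their median 5hmC level was 2.54, 4.18 and 5.01 and the median 5mC level 4.91, 4.79 and 3.85. Over the 1269 such pairs of the whole series the 5hmC call fell at the first step in 58.9% and the 5mC call in 20%, so a 5hmC call at the first step was more frequent than a 5mC call in the whole series too.

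By the region where the genes act, the cortical list (12 genes with peaks) had 14 of 80 5mC peaks lower (17.5%) and 4 higher from PP to neurons (17 and 2 without centring), and 28 of 113 5hmC peaks higher (24.8%) and 9 lower. The Cajal-Retzius and cortical hem list had 10 of 48 5mC peaks lower (20.8%) and 16 of 53 5hmC peaks higher (30.2%). Its lower 5mC peaks include 4 of 17 of Barhl2, which acts in the diencephalon, retina and spinal cord, and the single Barhl1 peak. The list name thus does not cover where all its genes act. The ventral telencephalon and interneuron list had 3 of 23 lower (13%) and 5 of 14 higher (35.7%). The midbrain, hindbrain and spinal cord list had 4 of 50 lower (8%), with 4 higher, and 15 of 69 5hmC peaks higher (21.7%). The list of genes best known from other tissues, some of which (Pou6f1, Pou2f1, Six5 and Pou2f2) were also expressed in these cells, had 3 of 32 lower (9.38%) and 10 of 34 higher (29.4%). Gbx1, Meis3, Pbx4 and Pou5f2 stood in no list and had 2 of 8 5mC peaks lower and 4 of 14 5hmC peaks higher. The background shares are 10.2% and 22.1%. Differences between the lists were not tested.

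Among the cortical genes Zfhx3 had the most peaks, 53 of 5mC and 37 of 5hmC, or 16.7% of all member peaks, and only 4 genes of the series had more. Of its 5mC peaks 9 were lower and 2 higher in neurons than PP, and of its 5hmC peaks 12 were higher and 1 lower. Besides the pair described above, a 5mC peak 25 kb upstream of the annotated start (chr8:108689623-108689754) had levels of 3.86, 4.12 and 1. A level of 1 is 2 normalized reads, so the size of this fall is poorly determined. A peak 230 kb upstream went down and up again (4.76, 3.74 and 4.76). Gains of 5mC were smaller, the largest 89.4 kb upstream (4.17, 4.09 and 4.89). Inside the gene, 22.7 kb from the start, 5mC was higher in DP than in the other cell types (3.85, 4.73 and 3.56). The largest 5hmC gain also lay inside, 23.7 kb from the start, with 2.89, 3.93 and 5.81, and another 248 kb upstream had 2.37, 3.73 and 5.04. Most Zfhx3 peaks stayed within the bounds from PP to neurons, and its expression was 1154.3, 772.5 and 867.1.

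**Figure D4:**
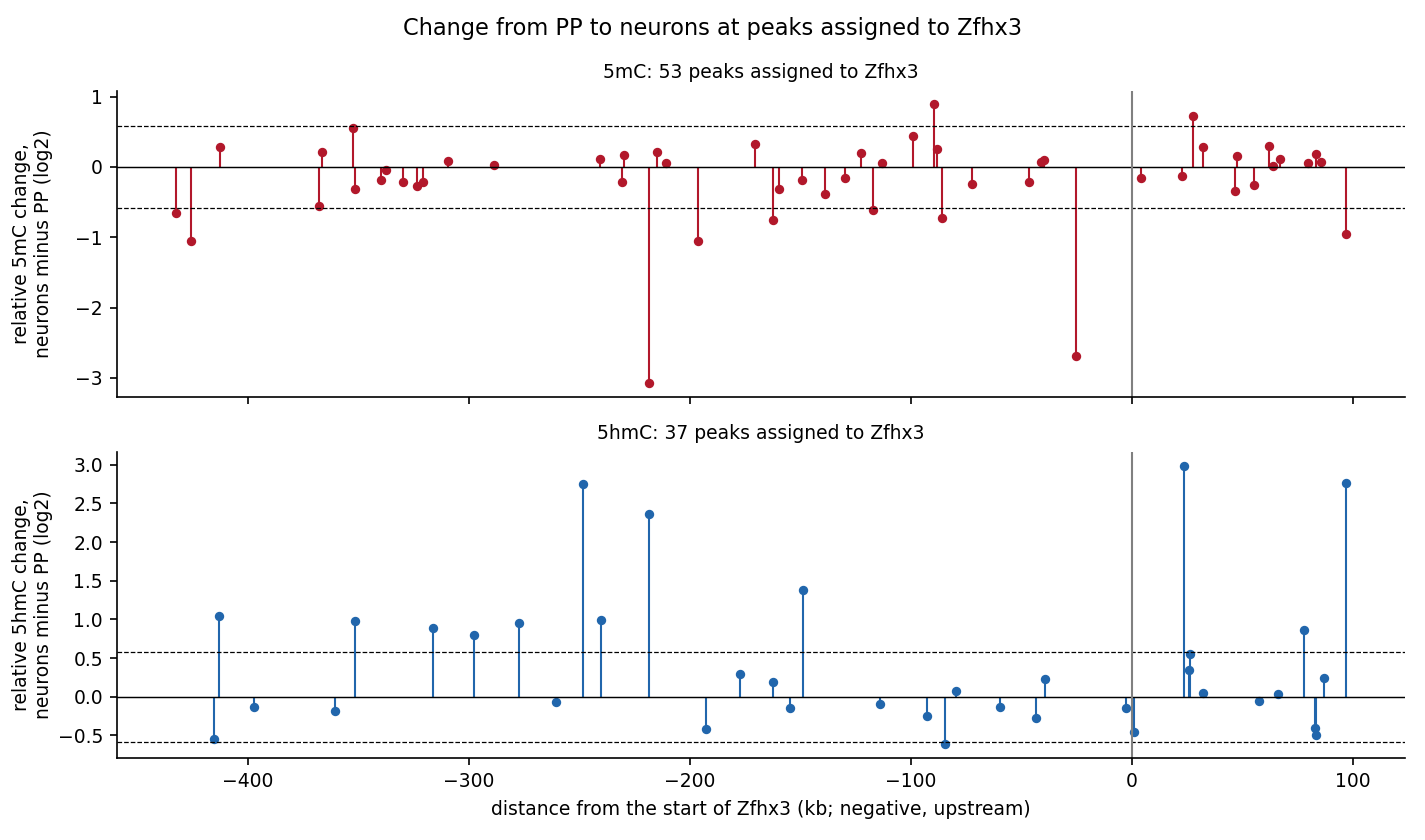
Relative change from PP to neurons (log2) at each peak assigned to Zfhx3, by distance from the annotated gene start in kb, for 53 5mC peaks (top) and 37 5hmC peaks (bottom). Dashed lines mark 1.5-fold, and single large falls of 5mC stand out at 218 and 25 kb upstream, the first with a 5hmC gain at the same place.

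Pax6, which maintains cortical progenitors and dorsal identity, had 1 5mC and 2 5hmC peaks, all within Pax6os1 upstream of the gene. The 5mC peak, 33.9 kb away, had 5.7, 4.93 and 5.12, a fall called from PP to DP only. The 5hmC peak 17.7 kb away was higher in neurons (3.65, 4.14 and 4.33, a relative change of 0.76) and the other, 40.3 kb away, did not reach the threshold (4.51, 5.02 and 4.76). Emx2, a dorsal factor that sets cortical area size, had 4 peaks of each mark, all downstream, and none of its 5mC peaks changed from PP to neurons. Its 5hmC was lower at 90.4 kb (4.63, 4.55 and 3.56), higher at 85.1 kb (3.74, 4.49 and 4.97) and went up and down farther away (3.75, 4.41 and 3.34). The loss and the gain lay within a few kb of each other, in the noncoding gene 2700089I24Rik.

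Otx1, a factor of progenitors and deep layer neurons, had 2 5mC peaks that stayed within the bounds and 2 of 8 5hmC peaks that rose, 40.9 kb upstream (3, 3.83 and 4.47) and 146 kb upstream (3.6, 3.31 and 4.84). All but 2 of its 10 peaks lay in Ehbp1, the neighbouring gene. Meis2, which works with Pbx and Pax6, had 2 5mC and 11 5hmC peaks, all inside the gene. One 5mC peak, 104 kb from the start, was higher in neurons (4.82, 4.73 and 5.31), and 5hmC was higher at 1 peak and lower at 1. That 5mC call rested on centring, as the uncentred difference from PP to neurons was 0.49. Lhx9 had 1 of 4 5hmC peaks higher (3.7, 3.86 and 5.01). Pou3f1, a POU factor of maturing cortical neurons, had 4 peaks, none changed. Pou3f4 had lower 5hmC 105 kb downstream (4.38, 3.53 and 3.61), and Pbx2 and Pbx3 each had 1 of 2 5hmC peaks higher.

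In the ventral telencephalon and interneuron list, lower 5mC from PP to neurons was called near Dlx1 and Dlx2 (which direct interneuron fate). All 3 Dlx1 peaks had negative relative changes and 2 were called, the larger 13 kb upstream of Dlx1 and within Metap1d (4.52, 4.88 and 3.25). Dlx2 had 1 of 3 called, 49.2 kb upstream (4.94, 5.02 and 3.98), and a 5hmC peak 61 kb upstream that rose (3.4, 4.58 and 5.03). Dlx5 and Dlx6 had 3 peaks of each mark between them, none changed. None of 7 5mC peaks of Six3, a forebrain and eye factor, changed from PP to neurons, and 2 of 3 5hmC peaks rose, the larger gain 50.5 kb upstream (3.37, 4.22 and 4.87). Nkx6-2, which acts in ventral progenitors and oligodendrocytes, had one of the largest 5hmC gains, 4.33 kb from its start within Inpp5a (1.49, 3.39 and 4.79). Nkx2-1, which specifies the medial ganglionic eminence, had 4 peaks without a change from PP to neurons, and its 5mC peak 41.2 kb downstream fell from PP to DP (5.21, 4.47 and 4.57).

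In the Cajal-Retzius and cortical hem list Lhx1 had a 5mC peak 27.9 kb upstream (chr11:84553892-84554027) that fell at both steps, with 5.73, 5.02 and 2.7. Lhx5 gained 5hmC at 5 of 7 peaks, the most marked upstream in Gm27199 (2.52, 2.45 and 5.14) and another 22.7 kb upstream (4.55, 4.74 and 5.99). Lmx1a, a factor of the hem and of dopaminergic progenitors, gained 5hmC at 5 of 16 peaks, all inside the gene, and 4 of them lay within 8 kb of each other, with levels such as 1.65, 2.28 and 4.78. It lost 5hmC at 2 peaks, and its 5mC peak 73.9 kb inside was highest in DP (2.85, 4.16 and 3.42). Barhl2 lost 5mC at 4 of 17 peaks and gained none, and gained 5hmC at 4 of 16. One of these, 70.3 kb downstream, fell and then rose (2.8, 1.87 and 5.32), and its rise from DP to neurons of 3.47 was the largest of that step. A DP level of 1.87 stands for few reads, so the dip and the rank of this rise are poorly determined. Msx1, a roof plate factor, lost 5mC at 1 of 6 peaks, 28.5 kb downstream (4.82, 4.07 and 3.61), and 5hmC at 1 of 7.

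The midbrain, hindbrain and spinal cord list had 50 5mC peaks. From PP to DP 5mC was lower at 6 (12%, against 5.44% of all 5mC peaks) and higher at 3 (6% against 4.6%). From DP to neurons it was lower at 3 (6% against 9.36%) and higher at 6 (12% against 5.12%), or without centring lower at 4 and higher at 2. From PP to neurons it was lower at 4 and higher at 4, or without centring lower at 6 and higher at 2. Irx1 had 3 5mC peaks higher and 1 lower in neurons than PP, among them one 143 kb downstream (2.97, 4.37 and 4.11), and a peak 21.9 kb downstream dipped in DP (4.1, 2.81 and 3.7). Irx2, Irx3 and Irx5 had 16 5mC peaks, none changed from PP to neurons, and 5 of 26 5hmC peaks higher and 1 lower. At Irx2 5hmC dipped in DP 290 kb downstream (4.71, 3.73 and 4.46). Pou4f1 lost 5hmC at 2 peaks (5.6, 5.45 and 4.57 at the one 175 kb downstream) and gained it at 2. Pax7 lost 5mC 9.08 kb upstream (4.1, 4.33 and 2.64) and lost 5hmC 288 bases upstream of its start (4.44, 4.28 and 3.26), both within Gm46873, while 3 of its 10 5hmC peaks, inside the gene, rose. Pax2 lost 5mC 23.9 kb upstream by DP (5.29, 4.39 and 4.26). In Onecut2 a 5mC peak inside the gene was higher in DP only (3.48, 4.49 and 3.65), and 2 of 3 5hmC peaks rose.

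In the list of genes best known from other tissues Six2, a kidney and craniofacial factor, gained 5mC at 2 of 11 peaks, for example 108 kb upstream (4.04, 4.03 and 4.76), and 5hmC at 3 of 7. The other 5mC gain, 12 kb from the start, was called only with centring (uncentred difference 0.49). The single 5hmC peak of Six5, 5.73 kb downstream within Bhmg1, had the largest 5hmC loss of any member (4.59, 4.39 and 3.05). Dlx3, a skin and bone factor, lost 5mC at both of its peaks and gained 5hmC at 4 of 7. Pou2f2 had 1 of 5 5hmC peaks higher and 1 lower, the gain 3.8 kb upstream (2.91, 2.35 and 4.63), over a 5mC peak that did not change (5.85, 5.9 and 5.61). Both peaks are upstream only of the start the authors annotated and lie within the RefSeq span of Pou2f2 (chr7:25087350-25180797). Pou5f2, in no list and lying within Fam172a, had a 5hmC gain inside it (1.79, 3.79 and 4.63).

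Expression of the nearest gene, from the authors' earlier RNA-seq of these cell types on a scale the tables do not name, was compared only within a gene. Of the 49 member genes 30 reached 100 in some cell type and 19, among them Irx1, Pax7, Pou4f1, Six2 and Nkx2-1, did not. A gene was called when it changed by at least 2-fold (values plus 1) and reached 100 in the higher cell type. From PP to DP 9 were higher (18.4%, against 4.44% of all 16293 genes) and 0 lower (0% against 3.04%). Without that minimum 22 were higher and 2 lower. From DP to neurons 8 were higher (16.3% against 11.5%) and 7 lower (14.3% against 9.88%), and from PP to neurons 15 were higher (30.6% against 15%) and 6 lower (12.2% against 12.8%). Each value is a single averaged one without replicate error, and fewer cells of a type and less RNA per cell cannot be told apart.

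The cortical factors Pax6, Emx2 and Otx1 fell. Pax6 went from 25720.2 in PP and 15955 in DP to 1211.6 in neurons, Emx2 from 5082.5 and 4732.3 to 1044.2, and Otx1 from 9116.3 and 9785.1 to 2214.5. Six5 (2179.2, 1145.4 and 22.9) and Six4 (608.5, 732.1 and 185.8) also fell. Msx1 (58.2, 127.1 and 0.3) and Lmx1a (39, 274.8 and 77) were highest in DP. Meis2, Pbx2, Pbx3 and Zfhx3 changed by less than 2-fold at either step, while Zfhx2 reached 2.48-fold over both (3896, 4903.2 and 9653.1).

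Dlx genes, Lhx1 and Lhx5 rose from PP to neurons. Dlx1 went from 472.8 through 2166.6 to 3961, Dlx2 from 393.1 through 1225.8 to 2227.3, Dlx5 from 73.2 through 181.5 to 1332.5 and Dlx6 from 10.1 through 71.6 to 204.7. The interneuron marker Gad1, which makes the transmitter GABA, rose between DP and neurons (32.3, 41.9 and 3055.2). Of the 6 interneuron markers 3 had a row (Gad1, Dlx1 and Dlx2). As Dlx1 and Dlx2 are member genes given above, only Gad1 is a marker from outside the set. Lhx1 (1.5, 85.4 and 448.3) and Lhx5 (3.2, 38.9 and 394) rose together with Reln, the secreted protein of Cajal-Retzius cells (185.9, 1387.9 and 36007.4). With Calb2 and Lhx5 itself, 3 of 4 Cajal-Retzius markers had a row, and they summed to 191.9, 1434.7 and 36793.2. Reln and Calb2 are also made by other neurons. Markers of endothelium (sums 464.1, 341.9 and 96, 4 of 4 with a row), microglia (338.1, 206.7 and 77.5, 3 of 4) and choroid plexus (1561.6, 1029.4 and 56.3, 2 of 2) went the other way, lowest in neurons. The part of such cells in the marks and the expression was not tested.

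Lhx9 (205.5, 2261.4 and 2120.1), Pou3f1 (272.7, 1128.3 and 1388.7) and Onecut2 (137.5, 776.9 and 920.4) rose at the first step. Barhl2 (19.4, 54.6 and 138), Six3 (74.2, 91.9 and 205.3), Pou2f2 (78.5, 226 and 1163.8) and Meis3 (1211.7, 2107.2 and 5590.8) rose to neurons.

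**Figure D5:**
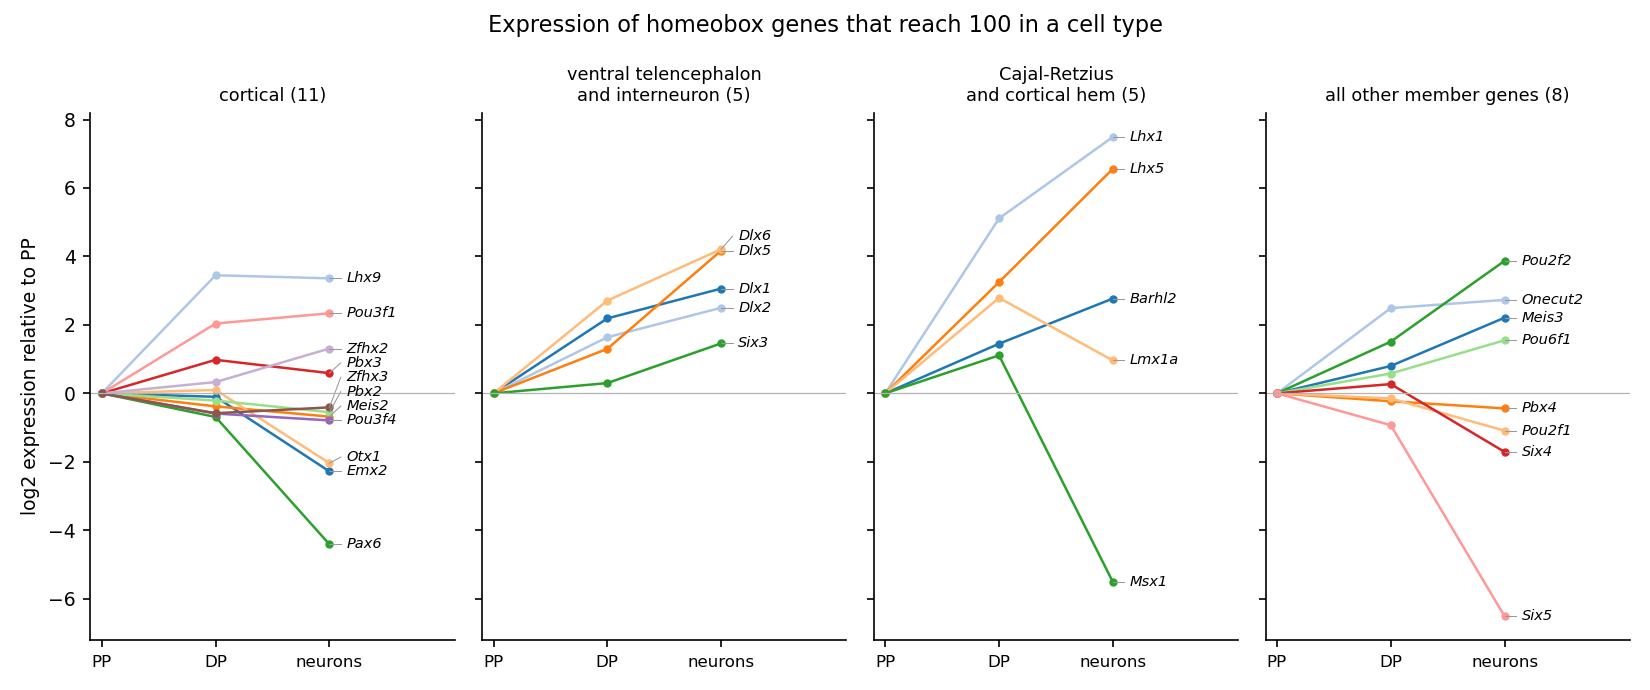
Expression relative to PP (log2 of the value plus 1) in PP, DP and neurons for 29 of the 30 member genes that reached 100 in a cell type, by list, with the number of genes in parentheses. Lines are single averaged values. The Dlx genes, Lhx1 and Lhx5 rise to neurons and Pax6, Emx2, Otx1, Msx1 and Six5 fall.

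Near the member genes whose expression was higher in neurons than PP, 13 of 56 5mC peaks were lower (23.2%) and 0 higher, and 22 of 59 5hmC peaks were higher (37.3%) and 1 lower. Near those whose expression was lower, 0 of 14 5mC peaks changed in either direction, and 5 of 19 5hmC peaks were higher and 2 lower. Near all genes with higher expression the shares were 14.7% for lower 5mC and 26.2% for higher 5hmC, and near all genes with lower expression 8.9% and 21.5%. Peaks of 1 gene share its expression value and the 14 genes with 56 peaks include Barhl2 with 17, so these shares describe few genes. Among the 19 genes below 100, where 10 of 85 5mC peaks were lower (11.8%) and 26 of 108 5hmC peaks higher (24.1%), peaks changed about as often as in the series as a whole. Irx1, for instance, had the largest 5hmC gain although its expression did not exceed 3 in any cell type.

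For comparison, regulators of forebrain patterning outside the set, such as Nr2f1 and Emx1, were counted from PP to neurons. Near 21 of them 25 of 111 5mC peaks were lower (22.5%), and near 20 of them 57 of 149 5hmC peaks were higher (38.3%). Both shares were above those of the homeobox members (14.9% and 26.3%), and the difference was not tested.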

How the data were processed

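The authors sorted PP, DP, and neurons, sequenced DNA after MeDIP and hMeDIP, aligned reads to mm10 with BWA 0.7.8-r455, and called peaks with SICER 1.1. Only peaks shared by the replicates of a cell type and lying outside repeats entered the tables. The level columns are deposited log2 values, namely the log2 of mean TMM-normalized reads per cell type from DiffBind, and replicates were averaged before deposition. The expression and distance columns are deposited score values, taken by the authors from an earlier RNA-seq study and from HOMER 4.7. The columns of the authors' own comparisons hold fold changes, p-values, and adjusted p-values, and these were not used. No counts, input signals, or levels per replicate were used, so the depth behind each level was not computed.

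Differences of levels were centred on the median of all peaks of a mark and called at 1.5-fold. Named peaks reached a level of 4 in some cell type and were the 4 genes with the largest change per mark, transition, and direction. Also named were the 10 pairs with the largest combined change, the 8 genes with most peaks, and up to 8 genes per transition and direction with a 2-fold expression change that reached 100 in the higher cell type (pseudocount 1), and the cortical list. Other peaks given in the account of each gene were chosen after their values were seen. Python 3.11.15, pandas 2.3.3, and scipy 1.17.1 were used, and the steps were tested on simulated data. Sequences and gene spans came from RefSeq GRCm38.p6, the assembly of mm10, and 98.4% of 5mC and 98.1% of 5hmC peaks annotated inside a gene with such a symbol fell in its span there. The families and lists were chosen with earlier results of these data known. Some genes that these rules name are not reported here, and totals include them.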

Additional observations from a re-analysis of the deposited data

How the results depend on the processing

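Shares of called peaks moved with the threshold and the unit of counting, and their intervals here cover counting error only. Values in parentheses are the shares over all peaks under the same setting, and transitions are in the order PP to DP, DP to neurons, and PP to neurons. With 2-fold in place of 1.5-fold, lower 5mC was 1.24% (0.96%), 3.32% (3.3%), and 7.05% (4%), and higher 5mC 0.83% (0.704%) and 0.83% (0.677%) for the last 2. Lower 5hmC was then 0% (0.56%), 1.01% (1.19%), and 0.673% (1.24%), higher 5hmC 5.72% (5.07%), 9.43% (8.03%), and 16.2% (14.2%), and pairs 11.4% (9.21%). With the median peak of each gene counted once, lower 5mC was 9.09% (2.09%), 4.55% (3.18%), and 9.09% (4.08%), and higher 5mC 0% (1.57%, 2.42%, and 2.27%). Lower 5hmC was 2.17% at each (2.32%, 3.36%, and 4.14%), and higher 5hmC 2.17% (5.11%), 4.35% (8.84%), and 19.6%, below the background at the first 2 and above it over the whole course. Among peaks with a level of at least 5, lower 5mC was 4.55% (2.76%), 6.82% (6.35%), and 7.58% (7.05%), higher 5mC 0.758% (2.78%) at the first step and 3.03% (2.85%) at the second, and higher 5hmC 9.52% (9.91%) at the first. Without centring, 5mC was lower at 17.4% (15.5%) and higher at 2.07% (2.26%) from DP to neurons, and lower at 20.7% (16.3%) and higher at 2.49% (2.12%) over the whole course, with medians of -0.18 and -0.22. Among peaks inside or within 20 kb of a gene start, higher 5mC from DP to neurons was 3.9% (5.09%). Leaving out Zfhx3, a choice made after the data were seen, moved none of 22 shares, medians, and counts beyond its interval. A stricter overlap of pairs did not either. It took the share of pairs with both changes from 34.3% (18.8%) to 28.1% (20.1%), nearer to that of all pairs. With no minimum on expression 22 genes were higher and 2 lower at the first step, and 16 were lower at the second. CpG density within the peaks was not run, as it needs a genome, and is not analysed here. No paired analysis was possible because no test was made and the level columns carry no replicate numbers. Depth limits the peaks whose level was near 1 or 2 on the log2 scale in some cell type. Few reads stand behind such levels, for falls that end there and for gains that start there.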
